A study of Mus musculus with 9 samples.

Results

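Piezo1 and Piezo2, their modulator Stoml3 and the 3 genes of the OSCA/TMEM63 family (Tmem63a, Tmem63b and Tmem63c) were followed as the mechanosensitive channel genes of newborn mouse epidermis. They were taken by symbol from the gene table, and all 6 were found among its 49672 rows. The table gives TPM, a transcript abundance per unit of length scaled to the same total in each library, so levels of different genes can be compared.

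Epidermal cells of the Sox2-GFP reporter strain, taken at postnatal day 0, were separated by flow cytometry. Merkel cells were collected as GFP-positive cells, and basal keratinocytes as GFP-negative cells that stained for both SCA1 and CD49F. There were 3 Merkel libraries and 6 basal libraries. Each of the sample numbers 1 to 3 has 1 Merkel library and 2 basal ones, called here the first and the second. What sets the first and second basal libraries apart, and whether a sample number is an animal or a pool, is not given in the sources used here, so p-values measure only the spread between sample numbers, which may be technical. All libraries carry the same reporter, and the Merkel gate rests on GFP.

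Piezo channels are very large membrane proteins that assemble as trimers and open when the membrane is stretched or indented, letting in cations. Piezo2 is the channel through which Merkel cells and touch neurons respond to light touch, and Piezo1 works in many cell types, keratinocytes, endothelium and blood cells among them. TMEM63 proteins, the animal relatives of the plant OSCA channels that respond to osmotic stress, open at high membrane tension. STOML3 is a stomatin-like membrane protein of sensory neurons that makes Piezo channels more sensitive.

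The labelled cell types were checked against markers. The summed level of 10 Merkel cell markers was 1040 to 1369 TPM in the Merkel group, and the basal group held 2.30 to 4.92. Basal keratinocyte markers (9 genes) summed to 6145 to 7142 TPM in Merkel libraries, 18996 to 20044 in first basal and 15205 to 17281 in second basal libraries. Markers of suprabasal keratinocytes (7 genes) summed to 7012.8 to 11525.5 TPM in Merkel libraries. They summed to 6849.8 to 10795.0 TPM in first basal and 7646.3 to 11139.7 in second basal libraries. Markers of other cell types were also found. Schwann cell markers (6 genes) summed to 11.4 to 19.4 TPM in Merkel, 8.88 to 10.7 in first basal and 14.5 to 18.0 in second basal libraries. Macrophage and Langerhans cell markers (7 genes) summed to 1035 to 1509 TPM in first basal libraries, against 60.5 to 347.8 in second basal and 74.3 to 203.5 in Merkel libraries. Melanocyte markers (6 genes) summed to 15.8 to 34.3 TPM in first basal, 104.6 to 151.6 in second basal and 150.4 to 210.8 in Merkel libraries. Fibroblast markers (8 genes) summed to 174.8 to 269.4 TPM in Merkel, 36.1 to 103.1 in first basal and 102.3 to 253.4 in second basal libraries. The proteoglycan gene Dcn made up most of that sum in the basal libraries and was not called (135 against 124 TPM, limma adjusted p = 0.48). Of 6 fibroblast markers tested the other 5 were called higher in Merkel cells, among them the collagen gene Col3a1 (29.9 against 0.965 TPM) and Col1a2 (38.3 against 5.12). Col1a1, Pdgfra and Corin passed the filter on low values only through their Merkel values, so they had to differ. Markers of sensory neurons, cells that also use Piezo2, summed to 12.6 to 17.9 TPM in the Merkel group, 0.50 to 2.21 in first basal and 0.42 to 1.60 in second basal libraries. Of these 10 genes 3 were tested between Merkel and basal cells and 2 were called higher, the synaptic gene Snap25 (7.20 to 12.0 against at most 0.14 TPM) and the neuropeptide gene Calca (2.07 to 4.09 against at most 0.37). Both passed the filter only through their Merkel values, so they had to differ. The other 7 stayed under 1 TPM in every library, neurofilament genes Nefl, Nefm and Nefh at 0.15 or less and the sodium channel gene Scn10a at 0.01 or less. For endothelium 5 of 7 markers stayed under 1 TPM in every library. Pecam1, the only one tested, was at 1.43 to 2.25 TPM in Merkel and 0.21 to 0.66 in basal libraries. It was not called (log2 fold change 0.97, limma adjusted p = 0.00092). Tek passed 1 TPM only in Merkel library 3 (1.14). The read depth behind TPM is unknown.

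Start regions are shown first, because they differ between 3 expressed members (Piezo1, Tmem63a and Tmem63b) and the 2 near 0. RefSeq gives 300-base windows on GRCm38, from 250 bases before to 50 bases after an annotated start, for 5 of the 6 members, all but Piezo2, with 2 starts for Tmem63c. In the 3 lines that follow, only the part before the first annotated exon is printed, 5′ to 3′ on the gene's strand, and capitals mark CG pairs. Piezo1 is shown as the expressed example (chromosome 8, 122551330 to 122551579, minus strand), and Stoml3 (chromosome 3, 53488457 to 53488652, plus strand) and the upstream start of Tmem63c (chromosome 12, 87021090 to 87021339, plus strand) as the members near 0.
Piezo1: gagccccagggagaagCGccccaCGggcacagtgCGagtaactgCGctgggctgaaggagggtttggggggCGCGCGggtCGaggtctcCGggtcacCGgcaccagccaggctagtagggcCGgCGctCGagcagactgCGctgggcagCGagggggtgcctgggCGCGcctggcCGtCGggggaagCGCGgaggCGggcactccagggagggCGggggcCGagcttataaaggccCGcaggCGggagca
Stoml3: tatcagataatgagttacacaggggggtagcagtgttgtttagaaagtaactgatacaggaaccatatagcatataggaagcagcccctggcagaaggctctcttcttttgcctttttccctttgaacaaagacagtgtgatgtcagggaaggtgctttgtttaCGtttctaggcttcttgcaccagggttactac
Tmem63c: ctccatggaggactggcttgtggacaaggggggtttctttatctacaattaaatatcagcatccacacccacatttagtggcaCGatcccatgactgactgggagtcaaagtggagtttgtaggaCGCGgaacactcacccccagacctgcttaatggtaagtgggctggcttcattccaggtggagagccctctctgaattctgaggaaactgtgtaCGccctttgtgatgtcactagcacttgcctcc
The printed stretch of Piezo1 holds 26 CG pairs in 250 bases, that of Stoml3 1 in 196 and that of Tmem63c 4 in 250. Over whole 300-base windows Piezo1 and Tmem63b had 34 CG pairs each and Tmem63a 33, while Stoml3 had 4 and the 2 windows of Tmem63c had 5 and 9. A window was called CG-rich at 50% G and C or more and an observed to expected CG ratio of 0.6 or more, and 33.5% of all 32851 windows were. The windows of Piezo1, Tmem63a and Tmem63b were CG-rich and those of Stoml3 and Tmem63c were not. The letters TATAAA, searched on both strands, stood in the Piezo1 window, starting 24 bases before its first exon, and in the downstream window of Tmem63c, and are found in 13.6% of all windows. The letters GGGCGG, also on both strands, stood in the windows of Piezo1, Tmem63a and Tmem63b and in 35.7% of all windows. These are descriptions of 6 annotated windows, and which starts were used in these cells was not measured.

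Merkel cells, which sense touch, were set against the basal keratinocytes around them. Piezo2 rose 16.0-fold in mean TPM and Piezo1 fell to 42.3% of its basal level. Tmem63a and Tmem63b were at 62.9% and 69.2% of their basal levels, short of the fold needed for a call, and Stoml3 and Tmem63c were near 0 everywhere. A gene was called where limma gave an adjusted p under 0.05 (Benjamini-Hochberg, over 13822 genes) and the change was at least 1 on the log2 scale in either direction. Of the 6 members 4 were tested, 1 was called higher, where 6.79% of all tested genes were, and 1 was called lower, where 5.27% were.

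Piezo2 was at 20.3, 12.4 and 20.4 TPM in Merkel libraries 1 to 3. In the first basal libraries it was at 0.51, 0.42 and 0.65 TPM, and in the second at 2.33, 0.93 and 1.79. The lowest Merkel library thus lay above the highest basal one, and the second basal libraries lay above the first without overlap. Over all genes tested in each comparison, 11.7% lay higher in Merkel libraries without overlap and 17.3% higher in second than in first basal libraries. Its Merkel mean was 17.7 ± 4.59 TPM and its basal mean 1.11 ± 0.386 (SD, n = 3, each number's pair of basal libraries averaged). The limma log2 fold change on the log2(TPM + 1) scale was 3.20 ± 0.21 (SE), with a 95% interval of 2.72 to 3.67 and adjusted p = 7.2e-06. By sample number the log2 difference was 3.25, 3.02 and 3.32, so that it was positive in 3 of 3. Piezo2 passed the filter on low values in all 3 Merkel and in 2 of 3 basal values. It lies on chromosome 18. In bulk RNA, fewer cells of a type and less RNA per cell cannot be told apart.

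**Figure D1:**
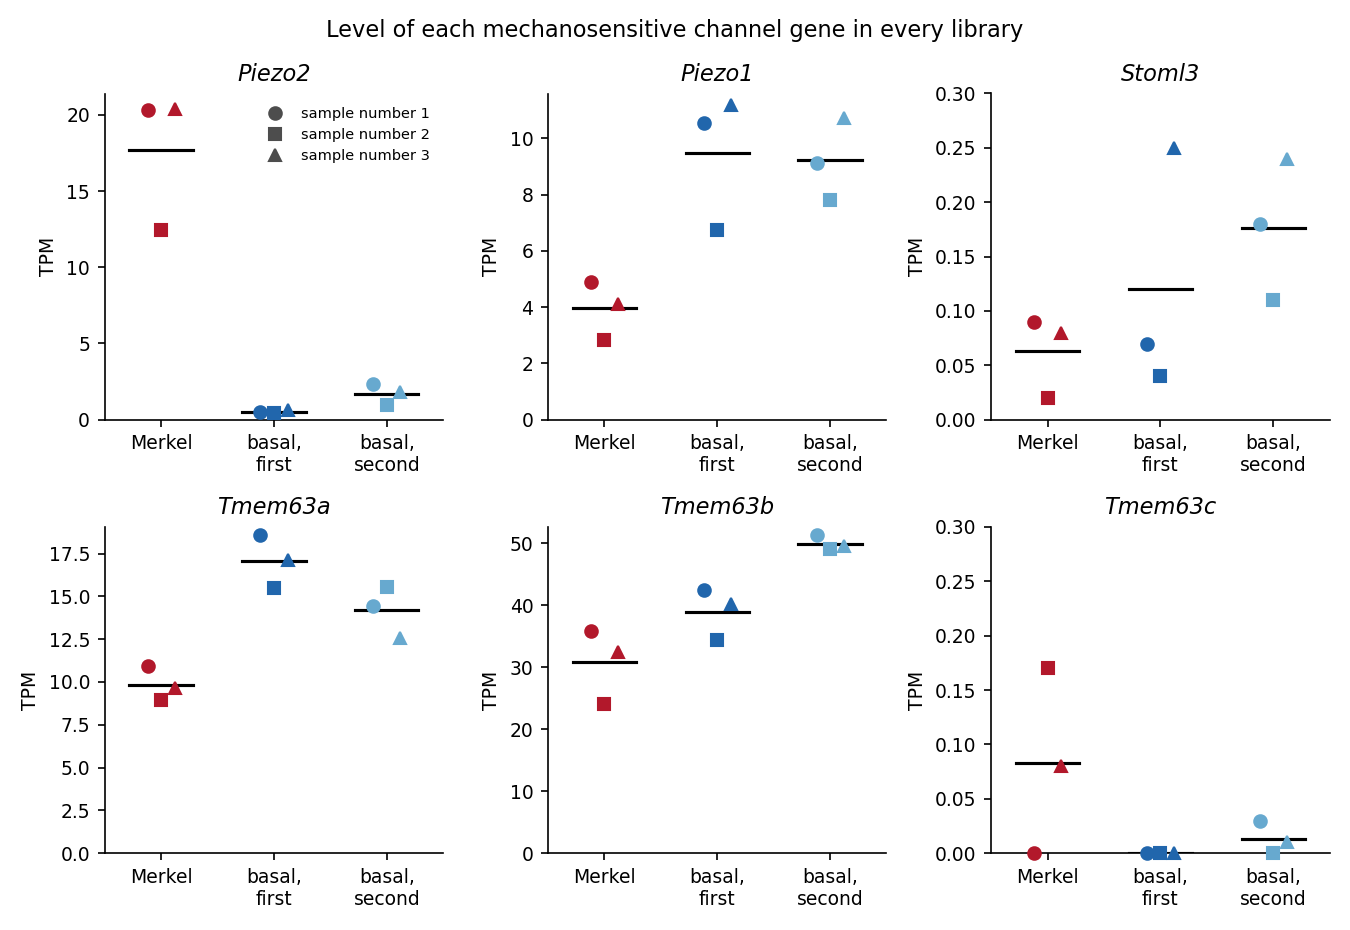
TPM of each of the 6 genes (vertical axes, all from 0, with different scales) in the 3 Merkel, 3 first basal and 3 second basal libraries; symbols are sample numbers and bars are means of 3 libraries. Piezo2 reaches 12.4 to 20.4 TPM in Merkel libraries and at most 2.33 in basal ones, the other expressed members have lower means in Merkel libraries, and Stoml3 and Tmem63c stay under 0.3 TPM.

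Piezo1, at chromosome 8 from 122481698 to 122551329 (mm10, minus strand), went the other way. Its level was 4.91, 2.85 and 4.10 TPM in Merkel libraries, 10.5, 6.75 and 11.2 in first basal and 9.13, 7.81 and 10.7 in second basal libraries. Every Merkel library lay below every basal library, and first and second basal libraries overlapped. The means were 3.95 ± 1.04 TPM against 9.36 ± 1.88 (SD, n = 3), with a limma log2 fold change of -1.07 ± 0.20 (SE, 95% interval -1.52 to -0.62, adjusted p = 0.0027). The median over all tested genes was -0.15. Median-ratio scaling, which moves that median to 0.02, put Piezo1 at -0.91 (adjusted p = 0.0064), which is short of a call. The call was also lost without Merkel replicate 2 (-0.90) or basal replicate 3 (-0.95). In 3 of 3 sample numbers the difference was negative (-0.87, -1.10 and -1.23).

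Merkel library 2 had the lowest level of Piezo2, Piezo1, Tmem63a and Tmem63b among the 3 Merkel libraries. Small, structural and mitochondrial RNAs held 53.4% of its TPM, against 45.7% and 43.1% in the other Merkel libraries and 40.6% to 46.1% in basal libraries. With those RNAs removed and the rest rescaled to the same total, Piezo2 stood at 37.5, 26.7 and 35.9 TPM in the Merkel group and at 0.764 to 4.16 in the basal group. On that scale Piezo1 stood at 9.05, 6.12 and 7.20 TPM in Merkel and 12.3 to 20.6 in basal libraries. Both genes kept groups that did not overlap. Over all tested genes 11.7% lay higher and 26.2% lower in Merkel libraries without overlap.

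The reference annotation places Piezo1 over 2 protein-coding genes of the opposite strand. Ctu2, a tRNA thiolation gene, was at 8.94 TPM in Merkel and 12.0 in basal libraries, and the predicted gene Gm20388 at 0.887 and 4.44 TPM. How the quantification treated strand is not given in the sources used here, so reads of such neighbours may be shared with Piezo1.

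Each kind of basal library was also used alone. Against the first basal libraries alone Piezo2 had a log2 fold change of 3.59 ± 0.20 (SE, limma adjusted p = 5.2e-06), and against the second alone 2.81 ± 0.24 (adjusted p = 3.2e-05). Piezo1 was at -1.08 ± 0.22 and -1.06 ± 0.19 (adjusted p = 0.0056 and 0.0019). The 2 comparisons share the Merkel libraries. Calls higher covered 7.43% of tested genes against first and 6.50% against second libraries, and calls lower 7.24% and 5.20%.

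**Figure D2:**
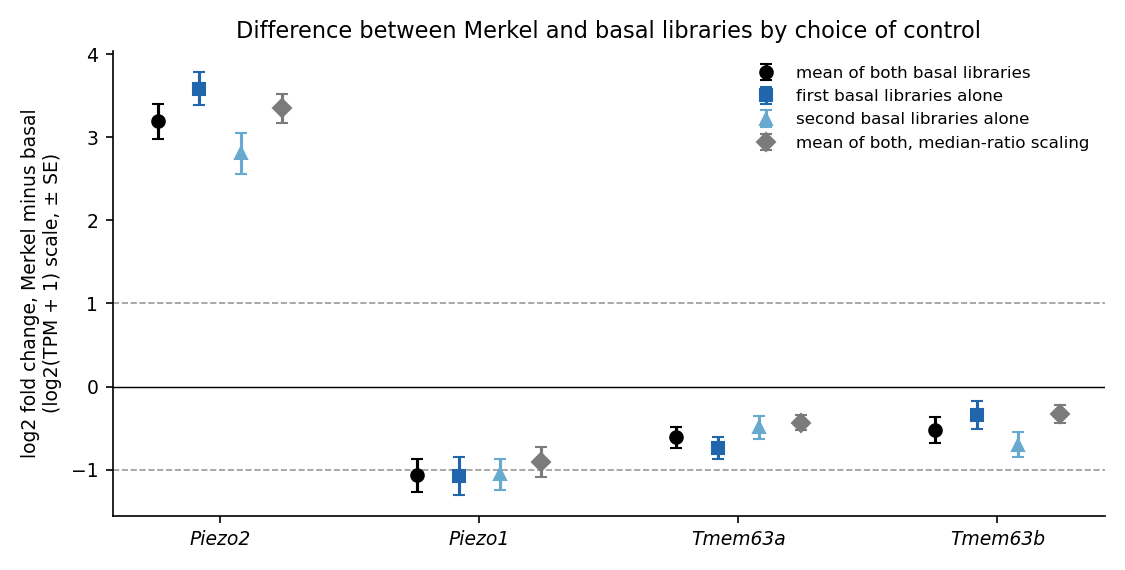
Log2 fold change of Merkel minus basal on the log2(TPM + 1) scale with its SE (vertical axis) for the 4 tested members, against both basal libraries averaged, the first alone, the second alone, and with median-ratio scaling; dashed lines mark the fold needed for a call. Piezo2 stays between 2.81 and 3.59, Piezo1 lies at or near -1, and Tmem63a and Tmem63b lie between 0 and -1.

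Second and first basal libraries were then compared directly. Piezo2 averaged 1.68 ± 0.706 TPM in the second and 0.527 ± 0.116 in the first (SD, n = 3), a log2 difference of 0.78. It was higher in the second library of all 3 sample numbers (1.14, 0.44 and 0.76). Too few basal libraries reached 1 TPM for it to be tested by the planned filter. The exact two-sided permutation test gave p = 0.10, the smallest that 3 against 3 can give. Without a filter limma gave adjusted p = 0.15. No member was called in this comparison, in which 4.35% of 13477 tested genes were. For Piezo1 the difference was -0.02, with a 95% interval of -0.49 to 0.45 (limma adjusted p = 0.97).

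Other transcripts were set beside the basal level of Piezo2, and only some of them rose from first to second basal libraries. The reporter transcript EGFP was at 3.72, 1.73 and 2.96 TPM in first and 17.1, 13.4 and 18.3 in second basal libraries, or 1.30% and 7.55% of its mean in Merkel libraries. Piezo2 stood at 2.97% and 9.50% of its Merkel level in the same libraries. The 10 Merkel markers were at most 0.567% of their Merkel level in first and 0.619% in second basal libraries. Sox2 itself was at 0.12, 0 and 0.11 TPM in first and 0.16, 0 and 0.1 in second basal libraries. Melanocyte markers had medians of 12.8% in first and 65.3% in second libraries, and fibroblast markers of 6.42% and 6.31%. Fibroblast markers did not move together. Of 3 tested between second and first basal libraries, Col1a2 was called higher (5.87% and 20.9%, limma adjusted p = 0.0038), where 4.35% of all tested genes were called either way. Dcn (52.8% and 130.1%) and Col3a1 (3.41% and 3.04%) were not called. Macrophage markers were lower in the second libraries, as given above. The part of any of these in the basal level of Piezo2 was not tested. Between Merkel and basal cells, 2 of 3 tested sensory neuron markers (Snap25 and Calca) were called higher, as Piezo2 was. Ntrk2, also tested, was not called (limma adjusted p = 0.36), and the other 7 markers of that list stayed under 1 TPM in every library. Of fibroblast and melanocyte markers 5 of 6 tested were called higher in each list, where 6.79% of all tested genes were. Snap25, Calca, Col1a1, Pdgfra and Corin had to differ, as given above. The part of these cell types in the Piezo2 difference was not tested either.

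**Figure D3:**
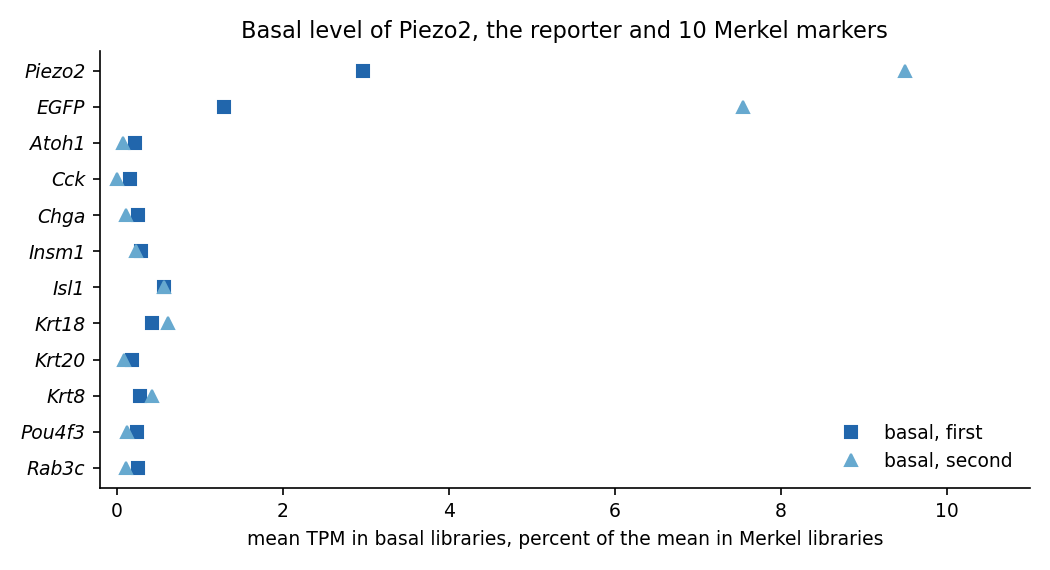
Mean TPM in first and second basal libraries as a percentage of the mean in Merkel libraries (horizontal axis, n = 3 libraries each) for Piezo2, the reporter EGFP and 10 Merkel cell markers. Piezo2 (2.97% and 9.50%) and EGFP (1.30% and 7.55%) stand to the right of the markers, none of which exceeds 0.619%.

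Basal keratinocyte markers were also detected in the Merkel libraries. The 9 basal markers were at 26.7% to 82.7% of their basal level in Merkel libraries, with a median of 36.9%. Piezo1 was at 42.3%, inside that range, as were Tmem63a and Tmem63b. Whether these Merkel levels come from keratinocyte RNA or from the Merkel cells themselves was not tested.

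Reading both Piezo genes in the same library removes the scaling of TPM from the comparison, apart from the pseudocount of 1 TPM. Merkel libraries 1 to 3 held 4.14, 4.36 and 4.98 Piezo2 transcripts per Piezo1 transcript. The first basal libraries held 0.0484, 0.0622 and 0.0581, and the second 0.255, 0.119 and 0.167. Piezo2 was thus the more abundant of the pair in every Merkel library and the less abundant in every basal library. The mean log2 ratio was 1.91 ± 0.14 for the Merkel group against -2.36 ± 0.11 for the basal group (SD, n = 3), a difference of 4.26. The exact two-sided permutation p was 0.10, the smallest possible for 3 against 3.

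**Figure D4:**
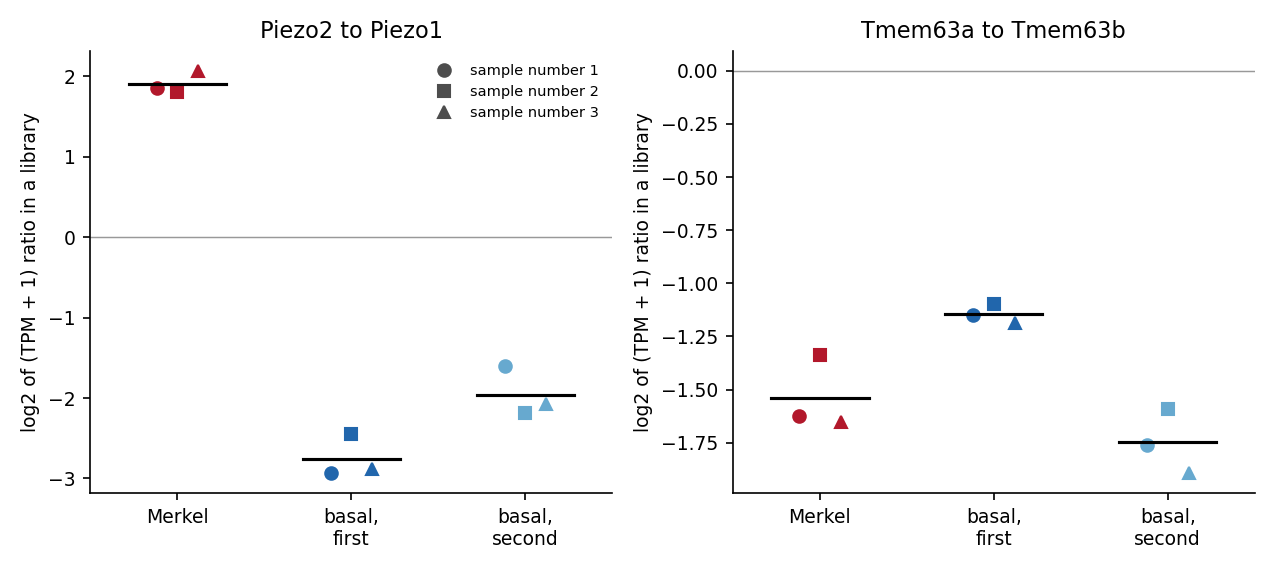
Log2 ratio of (TPM + 1) within each library (vertical axes) for Piezo2 to Piezo1 and for Tmem63a to Tmem63b, by group; symbols are sample numbers and bars are means of 3 libraries. The Piezo ratio is above 0 in all Merkel and below 0 in all basal libraries, and the Tmem63 ratio separates first from second basal libraries.

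Stoml3, on chromosome 3 from 53488653 to 53508502, was hardly detected. It was at 0.09, 0.02 and 0.08 TPM in Merkel, 0.07, 0.04 and 0.25 in first basal and 0.18, 0.11 and 0.24 in second basal libraries. The groups overlapped, and the exact permutation test gave p = 0.30. With no filter on low values the limma log2 fold change was -0.11 (adjusted p = 0.25). Values this low, written with 2 decimals and with no depth to set beside them, limit what can be said of it.

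The TMEM63 genes were led by Tmem63b, on chromosome 17 from 45660171 to 45686905 (minus strand). Its level was 35.8, 24.1 and 32.5 TPM in Merkel libraries, 42.4, 34.3 and 40.2 in first basal and 51.2, 49.0 and 49.5 in second basal libraries. Merkel and first basal libraries overlapped (35.8 against 34.3 TPM), and the second basal libraries lay above all others. Its Merkel mean was 30.8 ± 6.03 TPM and its basal mean 44.4 ± 2.61 (SD, n = 3). The log2 fold change was -0.52 ± 0.16 (SE, 95% interval -0.87 to -0.17, limma adjusted p = 0.025), below the size for a call. An adjusted p under 0.05 with a negative sign, at any fold, was reached by 28.5% of tested genes. Against the first basal libraries alone it was -0.34 (adjusted p = 0.14), and against the second alone -0.70 (adjusted p = 0.0058). Between second and first basal libraries it was at 0.35 ± 0.10 (limma adjusted p = 0.088), and with the sample number as a block adjusted p = 0.030. An adjusted p under 0.05 at any fold was reached by 8.19% of genes there without the block, and 17.3% lay higher in the second libraries with no overlap, as Tmem63b did. Tmem63b overlaps Mrpl14, a mitochondrial ribosomal protein gene of the opposite strand, at 25.6 and 26.2 TPM in Merkel and basal libraries, and the antisense gene Gm16172, at 0.517 and 2.49 TPM.

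Tmem63a, on chromosome 1 from 180942344 to 180975112, was at 10.9, 8.92 and 9.65 TPM in Merkel, 18.6, 15.5 and 17.1 in first basal and 14.4, 15.6 and 12.6 in second basal libraries. All Merkel libraries lay below all basal libraries. The means were 9.83 ± 1.01 against 15.6 ± 0.832 TPM (SD, n = 3), and the log2 fold change was -0.61 ± 0.12 (SE, 95% interval -0.89 to -0.33, limma adjusted p = 0.0040), which also fell short of a 2-fold change. With median-ratio scaling Tmem63a was at -0.43 and Tmem63b at -0.33 (adjusted p = 0.0067 and 0.040). Against first and second basal libraries alone Tmem63a was at -0.74 and -0.49.

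Within the family the balance of Tmem63a and Tmem63b differed between basal libraries, a comparison chosen after the values were seen. There were 0.438, 0.452 and 0.425 Tmem63a transcripts per Tmem63b transcript in first basal libraries and 0.282, 0.318 and 0.255 in second ones, with no overlap. Merkel libraries held 0.305, 0.371 and 0.297. The mean log2 ratio differed by -0.60 between second and first basal libraries (exact permutation p = 0.10, the smallest possible for 3 against 3) and by -0.09 between Merkel and basal values (exact permutation p = 0.60). Macrophage markers were higher in the first basal libraries and melanocyte markers in the second, as given above, and their part in this ratio was not tested.

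Tmem63c, on chromosome 12 from 87021340 to 87090043, was listed at 0 in 5 of 9 libraries. In Merkel libraries it was at 0, 0.17 and 0.08 TPM and in basal libraries at 0.03 TPM or less. The groups overlapped at 0, and the exact permutation p was 0.40.

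Ordered by level in Merkel cells, Tmem63b came first, then Piezo2, Tmem63a and Piezo1, and no neighbours among these 4 overlapped between libraries. Tmem63c and Stoml3 came last and overlapped. In basal keratinocytes the order was Tmem63b, Tmem63a, Piezo1, Piezo2, Stoml3 and Tmem63c, with no overlap between neighbours over 6 libraries, though the last pair lay near 0. In Merkel cells 68.2% of tested genes had a lower mean than Piezo2, and in basal keratinocytes 6.62%. For Piezo1 these shares were 26.6% and 45.4%, for Tmem63a 50.7% and 60.8%, and for Tmem63b 81.7% and 86.3%.

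Related genes were counted from 4 lists. Over all tested genes 6.79% were called higher and 5.27% lower, with a median log2 fold change of -0.15, so few calls are due in short lists. Proteins that modulate or tether Piezo channels, a list of 10 genes that holds E-cadherin and its partner beta-catenin (Ctnnb1), had 9 tested members, of which 0 were called by limma, 3 had adjusted p under 0.05 (41.7% of all tested genes did), and the median log2 fold change was -0.23. Their most abundant member, Ctnnb1, had a mean of 442 TPM in the Merkel group and 425 in the basal group (0.07). Anxa6, a membrane-binding annexin, lay just under the size for a call at 109 ± 14.4 against 54.7 ± 4.16 TPM (0.98, adjusted p = 0.00049) and is named after its value was seen. The stomatin family had 3 of 4 members tested and 0 called, with a median of -0.47, and Stoml2, its most abundant member, was at 47.0 and 58.4 TPM.

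A list of channels linked to stretch, swelling or touch, other than the members, had 13 of 18 genes tested. Of these 2 were called higher and 0 lower, with a median of -0.21. Over all tested genes 6.79% were called higher and 5.27% lower, with a median of -0.15. Both called genes encode acid-sensing channel subunits, and no other channel of the list was called. Asic1 averaged 5.67 TPM in the Merkel group against 0.897 in the basal group (1.79 ± 0.19, limma adjusted p = 0.00015). Asic2 was at 1.36 to 1.86 TPM in Merkel libraries and at most 0.03 in basal ones (1.41 ± 0.13, adjusted p = 5.4e-05). Since it passed the filter only through its Merkel values, it had to differ. The most abundant gene, the pannexin Panx1, was at 33.4 and 41.6 TPM (-0.31, adjusted p = 0.064). The hair cell channel genes Tmc1 and Tmc2 stayed at 0.32 TPM or less.

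YAP and TAZ are transcription co-activators that respond to mechanical tension and have been placed downstream of Piezo1 in some cells. Of 8 genes on their list 7 were tested, 1 was called higher and 2 lower, with a median of -0.75, beside the same 6.79%, 5.27% and -0.15 over all tested genes. Ccn1, a secreted matrix protein and classic YAP target, fell from 135 TPM in basal keratinocytes to 38.1 in Merkel cells (-1.86 ± 0.29, limma adjusted p = 0.0012). Ajuba, a LIM domain protein of cell junctions, fell from 95.4 to 44.1 TPM (-1.12, adjusted p = 0.00094), and did not reach a 2-fold change with median-ratio scaling (-0.92), quantile normalization (-0.98) or without Merkel replicate 2 (-0.93). Ccn2, another YAP target, rose from 7.57 to 15.8 TPM (1.19, adjusted p = 0.00020). Its call rested on the first basal libraries: these held 2.69 to 4.11 TPM and the second 9.59 to 13.1, and against the second alone it was at 0.39 (adjusted p = 0.083). With the 6 basal libraries as separate samples its adjusted p was 0.063. Yap1 itself was at 52.8 and 89.8 TPM (-0.75, adjusted p = 0.0013).

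**Figure D5:**
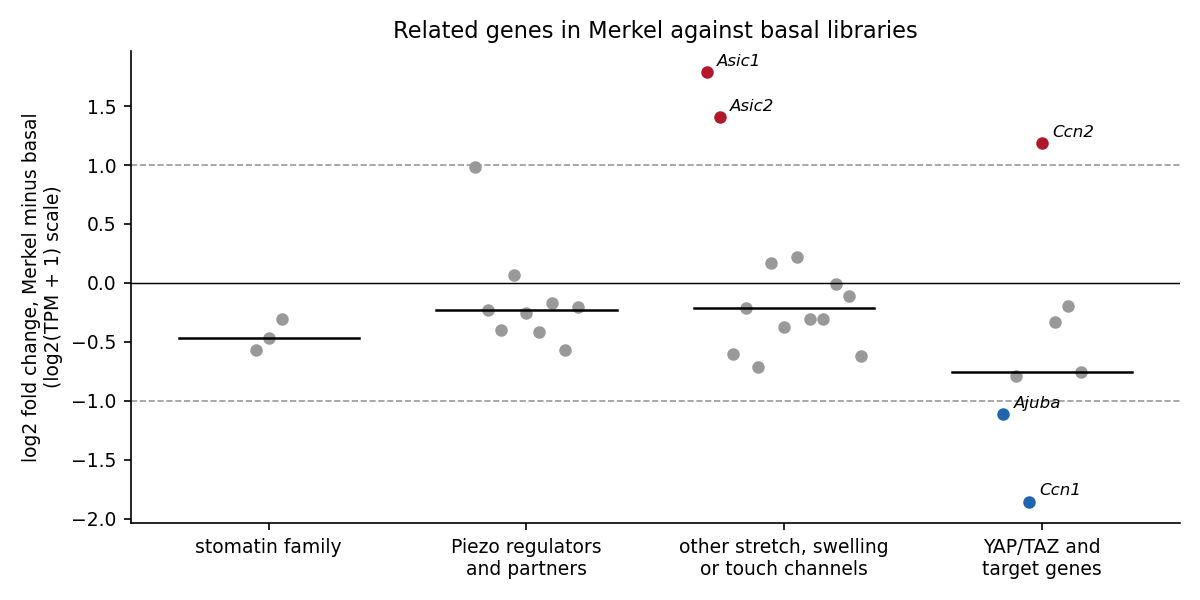
Log2 fold change of Merkel minus basal (vertical axis, log2(TPM + 1) scale) for each tested gene of 4 lists of related genes; red points were called higher, blue lower and grey not called, short bars are list medians, and dashed lines mark the fold needed for a call. Asic1, Asic2 and Ccn2 are above and Ajuba and Ccn1 below those lines.

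The genes with the profile most like each Piezo gene were taken by Pearson correlation of log2(TPM + 1) over the 9 libraries, among 12092 genes. These libraries share their grouping and sample numbers, so the values only describe. For Piezo2 they were Map1b (r = 0.999), Syt14 (0.996), Trib2 (0.994), Mapk4 (0.994) and Coro2b (0.994). Map1b, a microtubule-binding protein gene, was at 7.01 TPM in Merkel and 0.988 in basal libraries, and Trib2, a pseudokinase gene, at 22.3 and 1.78. For Piezo1 they were Cyp2j9 (0.993), Ccnl1 (0.988), Dlx4os (0.988), Zfyve27 (0.988) and Ccn1 (0.987). Ccnl1, a cyclin gene, was at 45.4 TPM in Merkel and 129.8 in basal libraries.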

How the data were processed

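The 9 libraries were made from total RNA with a stranded kit, per the labels' protocols. The submitters' processing notes name Trimmomatic, STAR, RSEM and the build mm10. No version, annotation or strand setting is stated there. The authors deposited TPM per gene, with 2 decimals. TPM keeps no depth, so no counting interval is given.

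Symbols came from GENCODE M21 (GRCm38, the same build), and 49326 of 49671 identifiers matched. Tests used log2(TPM + 1), with 1 basal value per sample number (the mean over its first and second library). Genes at 1 TPM or more in at least 3 of 6 values entered, and were tested with limma 3.58.1 (R 4.3.3, variance trend, two-sided, Benjamini-Hochberg). Second and first basal libraries were compared likewise, library by library. The fit was tested on simulated data. Sample numbers pair the samples. Deviations from group means correlated at 0.39, 0.36 and 0.20 between Merkel and basal values of numbers 1 to 3. Between second and first basal libraries they correlated at 0.50, 0.54 and 0.41. Values of different numbers correlated at -0.35 to 0.06 and at -0.53 to 0.19 in these 2 comparisons. The main fits do not use the pairing, and the block was run as an alternative.

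The members and lists were chosen with earlier results of these data known. The text names the 6 members, called and most abundant list genes, and the 5 genes most correlated with each Piezo gene, leaving out predicted genes and small RNAs. Permutation tests used scipy 1.17.1 and plots matplotlib 3.10.9. Alternatives covered pseudocount, filter, scaling, block, control libraries and each replicate left out.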

Additional observations from a re-analysis of the deposited data

How the results depend on the processing

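Piezo2 was called higher under all 16 alternatives, between 2.81 and 4.09 on the log2 scale, and Tmem63a and Tmem63b were negative and uncalled under all 16. The adjusted p of Tmem63b passed 0.05 against the first basal libraries alone (0.14), with no filter (0.051) and without basal replicate 1 (0.073) or 3 (0.078). Piezo1 was called lower except with median-ratio scaling (-0.91), without Merkel replicate 2 (-0.90) or without basal replicate 3 (-0.95); its values without 1 replicate ran from -1.22 to -0.90. The cause was not tested. Leaving out 1 replicate gave 3.06 to 3.42 for Piezo2. With the sample number as a replicate block 960 genes were higher and 759 lower, against 938 and 729 without it, and the block changed no member's call.

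Counts over all genes moved more. A filter at 5 TPM, which tests fewer genes, left 486 higher and 449 lower. A pseudocount of 0.1 TPM gave 1281 lower, and median-ratio scaling 1071 higher and 445 lower. Without 1 replicate 359 to 971 were higher and 568 to 849 lower, the fewest higher being without Merkel replicate 1 (399), 2 (464) or 3 (359), where a gene under 1 TPM in all basal values cannot reach the 3 values at 1 TPM that the filter asks for. Between second and first basal libraries 91 genes were higher and 495 lower. A pseudocount of 0.1 TPM gave 147 higher, and a filter at 5 TPM 58 higher and 253 lower. Without 1 replicate 48 to 103 were higher and 178 to 480 lower, with the higher count at 59 without first basal replicate 3, 50 without second basal replicate 1 and 48 without second basal replicate 3, and the lower count at 234, 178 and 278 without first basal replicates 1 and 3 and second basal replicate 3. Piezo1 there changed sign without first basal replicate 1 (0.06), first basal replicate 3 (0.10) or second basal replicate 2 (0.08), over a range of -0.22 to 0.10, and Piezo2 moved from 0.78 to 1.44 with a pseudocount of 0.1 TPM. The Piezo2 to Piezo1 difference stayed positive under all 10 of its alternatives, from 3.86 to 5.32, and from 4.18 to 4.32 without 1 replicate. With the pairing by sample number the exact sign-flip p was 0.25, the smallest for 3 pairs. The unknown depth limits what can be read from Stoml3 and Tmem63c.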
